A study of Mus musculus with 15 samples.

Results

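Among 15 RNA sequencing libraries of mouse cortex, 6 held at least 5000 CPM of the noncoding RNA Malat1 (CPM is the count scaled to a library total of 1000000) and 9 held fewer; these are called the Malat1-high and Malat1-low libraries. The libraries come from wild-type C57BL/6J mice, with 5 animals given a single session of intermittent theta-burst stimulation (iTBS), 5 given continuous theta-burst stimulation (cTBS) and 5 given sham stimulation, all killed 3 hours later. The tissue is somatosensory cortex by the titles and sensorimotor cortex by the design text, and each library is bulk RNA of dissected tissue. The labels give neither the sex nor the age of the animals. The Malat1-high libraries were iTBS 2, 3 and 4 and sham 1, 2 and 3. The Malat1-low libraries were iTBS 1 and 5, sham 4 and 5 and all 5 cTBS libraries.

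The libraries were selected on Malat1 itself, so its values are a description and carry no test. In the high libraries Malat1 stood at 5736 CPM in sham 2, 6365 in iTBS 3, 7863 in sham 1, 8407 in iTBS 4, 9492 in iTBS 2 and 10000 in sham 3. In the low libraries of the iTBS and sham groups it stood at 1565 CPM in sham 4, 2948 in iTBS 1, 3467 in iTBS 5 and 4668 in sham 5. In the cTBS libraries it stood at 985 CPM in cTBS 4, 1521 in cTBS 1, 2925 in cTBS 3, 3653 in cTBS 2 and 3824 in cTBS 5. The libraries nearest the threshold were sham 2 just inside it and sham 5 just outside it, and no wide gap in the values separates the sets. Because cTBS holds 0 high libraries, a comparison of the sets that accounts for the stimulation group rests on the 3 high and 2 low libraries of iTBS and the 3 high and 2 low libraries of sham.

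Malat1 is a long noncoding RNA that is spliced little, is not translated and stays in the nucleus, where it gathers at the speckles that store splicing factors. Other long noncoding RNAs are held in the nucleus in the same way: Neat1 builds the paraspeckles, and transcripts such as Kcnq1ot1 and Meg3 remain near the genes they come from. Introns and unfinished transcripts are nuclear too, whereas messenger RNAs for ribosomal proteins, metabolic enzymes and synaptic proteins collect in the cytoplasm, and some of them in axons and dendrites. Libraries made from total RNA without selection of polyadenylated RNA, as here, count both kinds. In bulk tissue, fewer cells of a type and less RNA per cell cannot be told apart, and neither can more nuclear and less cytoplasmic RNA.

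Across all genes, many long noncoding genes and genes in introns were higher in the Malat1-high libraries, with Meg3, Snhg11 and Neat1 among them, and part of the messenger RNAs for synaptic vesicles, glycolysis and translation factors was lower, by smaller amounts. With the stimulation group as a term, edgeR's quasi-likelihood test called 5479 of 22997 genes at an adjusted p under 0.05, which is 23.8% of those tested. Of these, 3546 were higher (15.4%) and 1933 were lower (8.41%) in the high libraries, and the median log2 fold change of all tested genes was 0.04. The values of the 6 high and all 9 low libraries did not overlap for 1977 genes that were higher (8.6%) and 590 that were lower (2.57%). The sets were made from a measured value, so these calls describe how genes separate the 2 sets of libraries and are no test of a treatment; nothing is read from their number.

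The counts of calls rest on few libraries and on the scaling. Without sham 4 edgeR called 0 genes (smallest adjusted p = 0.0674, with 6744 genes at an unadjusted p under 0.05 against 9296 with all libraries), and with log2 total counts as a covariate it called 0 as well (smallest adjusted p = 0.186, 4538 genes at an unadjusted p under 0.05). Higher calls fell to 796 without iTBS 1, 2054 without iTBS 2, 2091 without iTBS 4, 2134 without iTBS 5, 1817 without sham 1 and 1846 without sham 3. Lower calls were 1129 without iTBS 2, 1273 without iTBS 4, 1099 without sham 1, 1042 without sham 3, 3177 without cTBS 3 and 3315 without cTBS 4. Higher genes made up 64.7% of the calls with the trimmed-mean (TMM) scaling used here, 52.8% with the relative log scaling of DESeq2 in the same edgeR fit and 87.8% with library totals alone. These limits apply to each count of calls that follows. Each such count is to be read beside the 15.4% higher and 8.41% lower among all tested genes.

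Most of the listed long noncoding RNAs held in the nucleus were higher. Of the 19 listed beside Malat1, all tested, 13 were higher and 1 was lower, with a median log2 fold change of 0.56. A rise was not particular to this list: the median was 0.40 for intergenic long noncoding genes and 0.91 for antisense genes. The list was chosen with results of these libraries known and is no independent evidence of a direction. Of the 10 genes with the largest rise among called genes with at least 10 CPM, no overlap of the sets and an established symbol, 7 were noncoding RNAs: Meg3, Kcnq1ot1, Snhg11, Miat, Mirg, Lncpint and Neat1. The reference annotation classes Snhg11 as protein-coding, and the class counts below hold it there. The other members of those 10 were Rtl1, a retrotransposon-derived imprinted gene, Spaca6, a gene of sperm-egg fusion, and Snrnp48, a protein of the minor spliceosome.

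Meg3, a maternally expressed imprinted RNA abundant in neurons, was at 1292 to 2215 CPM (median 1954) in the high libraries. It was at 775 CPM in iTBS 1, 872 in iTBS 5, 459 in sham 4 and 1119 in sham 5, and at 339, 1003, 783, 257 and 913 CPM in cTBS 1 to 5. Each high library lay above each low library, with a log2 fold change of 1.21 ± 0.34 (SE; edgeR adjusted p = 0.0255). Snhg11, a neuronal noncoding transcript, was at 856 to 1460 CPM in the high libraries, 339 to 768 in the low iTBS and sham libraries and 215 to 693 in cTBS (1.12 ± 0.30, edgeR adjusted p = 0.0216). Both genes ran in nearly the same order of libraries as Malat1, from cTBS 4 at the bottom to sham 3 and iTBS 2 at the top.

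Neat1, the scaffold of paraspeckles, was at 30.4 to 42.8 CPM (median 38.4) in the high libraries. It was at 21.1 CPM in iTBS 1, 21.6 in iTBS 5, 10.8 in sham 4 and 22.8 in sham 5, and between 9.79 and 26.2 CPM in cTBS. The sets did not overlap, and the log2 fold change was 0.98 ± 0.22 (edgeR adjusted p = 0.0162). Snhg14, the long transcript that runs through the small nucleolar RNA clusters of the Prader-Willi region and on over Ube3a, was the most abundant of the list after Malat1 by CPM, a scale that is not corrected for length. It was at 2034 to 2460 CPM in the high libraries, 895 to 1456 in the low iTBS and sham libraries and 815 to 1549 in cTBS (0.86 ± 0.16, edgeR adjusted p = 0.0162). Within the high libraries Snhg14 did not follow Malat1: its highest value was in iTBS 3, and sham 3, the highest for Malat1, was the lowest of them.

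Kcnq1ot1, an antisense RNA that silences neighbouring imprinted genes, was at 176 to 244 CPM in the high libraries, 46.1 to 156 in the low iTBS and sham libraries and 27.1 to 119 in cTBS (1.13 ± 0.33). Miat, which forms its own nuclear bodies in neurons, was at 99.5 to 212 CPM against 48.7 to 98.2 and 28.0 to 96.1 CPM (1.08 ± 0.33), so its sets were separate by a small margin. Lncpint, a p53-induced noncoding RNA, was at 44.7 to 63.0 CPM against 15.7 to 39.0 and 11.1 to 32.8 CPM (1.06 ± 0.26). Among RNAs of the X inactivation centre and the X chromosome, Ftx was at 0.94 ± 0.28, Firre, which anchors chromosomal regions in the nucleus, at 0.76 ± 0.22 and Jpx at 0.47 ± 0.13 (log2 fold changes ± SE). The neural RNAs Rmst and Sox2ot were at 0.56 ± 0.17 and 0.42 ± 0.11, and in both the sets overlapped. All of these passed the test.

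The rise was not shared by all RNAs of the list. Tug1 was at 108 to 125 CPM in the high libraries, 116 to 124 in the low iTBS and sham libraries and 116 to 133 in cTBS, with a log2 fold change of -0.04 ± 0.06 (edgeR adjusted p = 0.587). Its sign was positive with library totals alone and with log2 total counts as a covariate. Peg13, an imprinted noncoding RNA within the intron of Trappc9, was lower in the high libraries, at 257 to 292 CPM against 303 to 350 CPM in the low iTBS and sham libraries (-0.23 ± 0.07, edgeR adjusted p = 0.0298). The 5 cTBS libraries, at 274 to 347 CPM, overlapped the high libraries for Peg13.

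**Figure D1:**
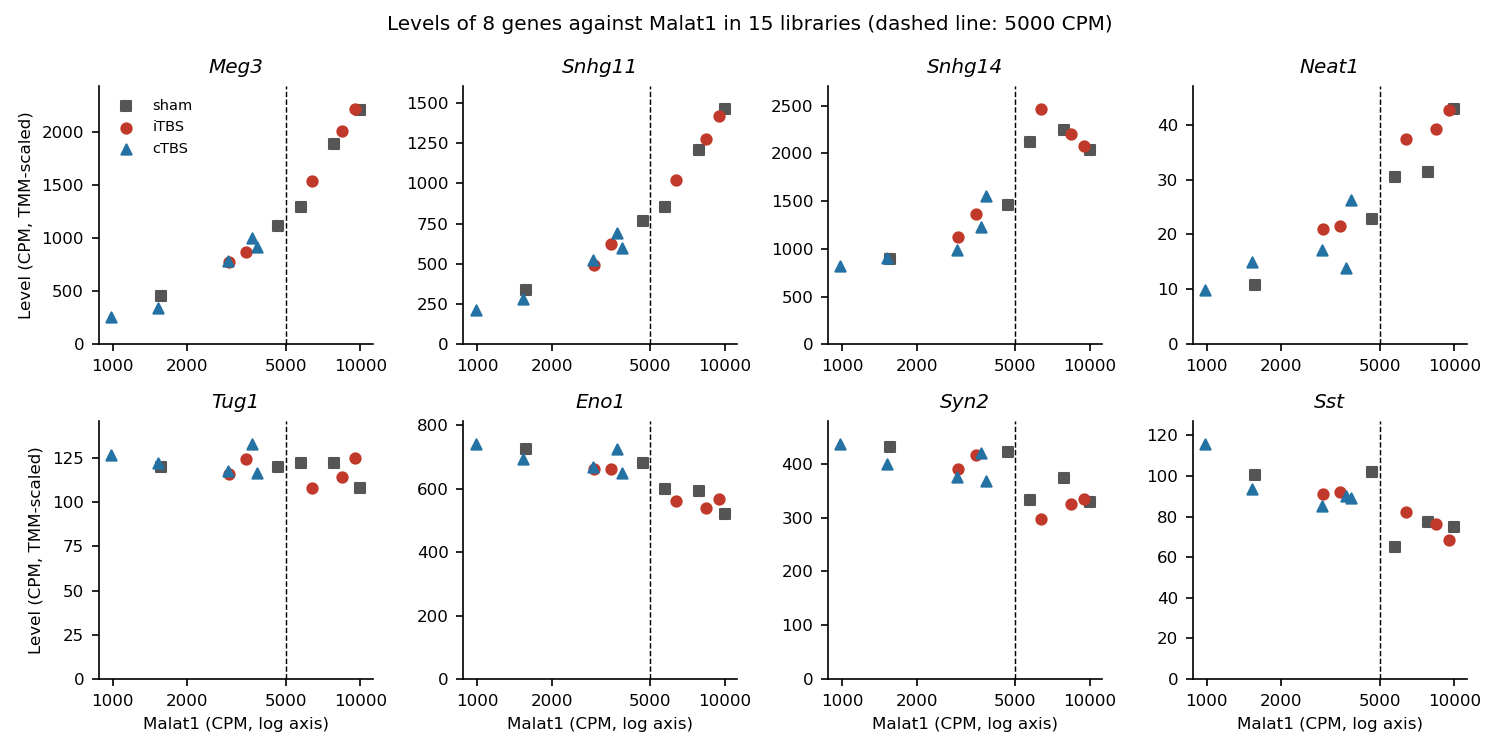
Level of 8 genes (vertical axes, TMM-scaled CPM) against Malat1 (horizontal axes, CPM, log axis) in 15 libraries, with squares for sham, circles for iTBS, triangles for cTBS and a dashed line at 5000 CPM. Meg3, Snhg11, Snhg14 and Neat1 are higher in all 6 libraries right of the line, Tug1 stays between 108 and 133 CPM, and Eno1 and Sst are lower in all 6; Syn2 is lower too, with 1 high library inside the cTBS range.

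Several of the genes with the largest rise share 1 imprinted stretch of chromosome 12, which carries Meg3, the antisense gene of Rtl1, the small nucleolar RNA host Rian and the microRNA host Mirg on the same strand. Rtl1 was at 31.2 to 46.0 CPM in the high libraries, 6.57 to 20.05 in the low iTBS and sham libraries and 3.90 to 21.2 in cTBS (1.39 ± 0.38, edgeR adjusted p = 0.0232). No source used here says whether counting used the strand, so Rtl1 counts and those of its antisense transcript cannot be told apart; the same holds for Kcnq1ot1 and the gene it lies in. Mirg was at 40.1 to 67.5 CPM against 15.1 to 38.1 and 9.67 to 31.5 CPM (1.08 ± 0.31). Rian rose less, from 446 to 616 and 387 to 568 CPM in the low sets to 676 to 793 CPM (0.49 ± 0.11), although it lies between the others.

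MicroRNA hairpin genes lie along this stretch, some of them within Rian or Mirg. Of 24 tested between Meg3 and Mirg, 11 were higher and 0 lower, all 24 log2 fold changes were positive and the median was 1.29. Their median level was 0.607 CPM, and the low-count filter could keep such genes through the high libraries alone. Mir411, for example, was at 0.253 to 0.624 CPM in the high libraries and 0 to 0.390 CPM in the low iTBS and sham libraries. The part of the filter in the shared sign was not tested. The mature microRNAs of the 7 higher genes whose sets did not overlap are shown because they identify which hairpins were counted. The 13 sequences are from RefSeq (GRCm38.p6, chromosome 12, plus strand), written 5′ to 3′ with the seed, bases 2 to 8, in capitals.

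mmu-miR-341-3p: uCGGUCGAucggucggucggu
mmu-miR-341-5p: cGGUCGGCcgaucgcucgguc
mmu-miR-1188-3p: uCCGAGGCuccccaccacacccugc
mmu-miR-1188-5p: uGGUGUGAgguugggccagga
mmu-miR-300-3p: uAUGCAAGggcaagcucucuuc
mmu-miR-300-5p: uUGAAGAGagguuauccuuugu
mmu-miR-453: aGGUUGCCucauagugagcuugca
mmu-miR-540-3p: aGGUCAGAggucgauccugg
mmu-miR-540-5p: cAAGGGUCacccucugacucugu
mmu-miR-665-3p: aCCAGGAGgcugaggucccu
mmu-miR-665-5p: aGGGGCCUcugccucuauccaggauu
mmu-miR-493-3p: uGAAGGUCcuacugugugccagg
mmu-miR-493-5p: uUGUACAUgguaggcuuuc

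No seed occurred more than once among the 13, so these microRNAs do not form a seed family. The libraries were made from total RNA with no selection for small RNA, so a count on a hairpin gene can come from a host transcript that runs through it, and the level of a mature microRNA was not measured. Mir341 was at 4.10 to 7.80 CPM (median 5.60) in the high libraries. It was at 1.41 CPM in iTBS 1, 2.68 in iTBS 5, 0.555 in sham 4 and 2.63 in sham 5, and between 0.602 and 2.93 CPM in cTBS (log2 fold change 1.65 ± 0.45, edgeR adjusted p = 0.0236). The sets stayed apart, with a gap between 2.93 CPM in cTBS 5 and 4.10 CPM in the lowest high library. Mir1188, beside it within Rian, was at 3.54 to 5.20 CPM against 0.910 to 2.27 and 0.289 to 2.09 CPM (1.49 ± 0.39). The log2 fold changes of Mir300, Mir453, Mir665, Mir493 and Mir540 were 1.79 ± 0.48, 1.55 ± 0.43, 1.45 ± 0.40, 1.40 ± 0.47 and 1.39 ± 0.42.

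Of the other 47 microRNA genes tested, 9 were higher and 0 lower, 46 fold changes were positive and the median was 0.96. The summed share of counts on microRNA genes nevertheless overlapped, at 0.0251% to 0.0897% in the high and 0.0195% to 0.0887% in the low libraries. Mir186, in an intron of Zranb2, a splicing factor, was at 1.55 to 3.90 CPM in the high libraries, 0.732 to 1.20 in the low iTBS and sham libraries and 0.529 to 1.33 in cTBS (1.38 ± 0.29, edgeR adjusted p = 0.0162). Mir708, in an intron of the teneurin gene Tenm4, was at 1.64 ± 0.55, and Mir5125, within the speckle protein gene Srrm2, at 1.13 ± 0.36. Over all 71 tested miRNA genes 20 were higher, and their median level over the 15 libraries was 0.464 CPM, so single genes rest on few counts. A gene passed the low-count filter when enough libraries reached a minimum, and the high libraries alone could supply them. Mir708, for example, was at 0.314 to 0.822 CPM in the high libraries. It was at 0.022 to 0.260 CPM in the low iTBS and sham libraries and 0 to 0.140 CPM in cTBS. How far the filter set the direction of such genes was not tested. Small nucleolar RNA genes (55 tested, 11 higher, 0 lower, median 1.04) and small nuclear RNA genes of the spliceosome and related particles (39 tested, 7 higher, 0 lower, median 0.96) had similar medians. Their shares of higher genes, 20% and 17.9%, were near the 15.4% of all tested genes. Their mean log2 CPM was -0.39 and -0.64 in the high libraries and -1.24 and -1.33 in the low iTBS and sham libraries. The limit of the low-count filter holds for them as well.

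Calls were unevenly spread over the gene classes of the reference annotation. Of 15247 protein-coding genes, 1247 were higher and 1833 lower, with a median log2 fold change of -0.05. Of 881 intergenic long noncoding genes, 200 were higher and 6 lower (median 0.40), and of 1255 antisense genes 450 were higher and 1 lower (median 0.91). Sense-intronic genes, which lie within an intron of a coding gene, had 105 of 203 higher and 1 lower (median 1.16). The class named TEC, mostly single-exon models that rest on transcript evidence alone, had 923 of 1791 higher and 0 lower (median 1.11). Processed pseudogenes had 256 of 1893 higher and 80 lower (median 0.09).

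Position relative to coding genes ordered the long noncoding genes. Those inside an intron of a coding gene on the same strand had 804 of 1386 higher and 1 lower, with a median of 1.17. Those inside an intron on the opposite strand had 249 of 522 higher and 0 lower, with a median of 1.13. Those that overlapped a coding exon or a gene end had 435 of 1387 higher and 1 lower (median 0.73), and those outside coding genes had 323 of 1339 higher and 7 lower (median 0.42). Both intronic groups thus had higher medians than the other positions. Differences between positions were not tested. No source used here says whether counting used the strand, so an opposite-strand gene and the intron it lies in cannot be told apart by these counts. This limit of the strand holds for the antisense class above and for each comparison of strands that follows. Levels were low: those on the opposite strand had a mean log2 CPM of 0.31 in the high libraries. It was -0.75 in the low iTBS and sham libraries and -1.14 in cTBS. The low-count filter could keep a gene through the high libraries alone, and its part in these counts and medians was not tested. The same limit of the filter holds for the antisense, sense-intronic, TEC and processed pseudogene classes.

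Intronic genes did not follow the coding gene around them. In 1358 pairs with a tested host on the same strand, held by 767 hosts, the intronic gene had a median of 1.18 and the host a median of -0.06, and the intronic gene was above its host in 99.4% of pairs. In 508 pairs on opposite strands the medians were 1.13 and -0.08, and 98.2% of intronic genes were above the host. Across same-strand pairs the fold change of the intronic gene and of its host had a Pearson r of -0.01 (n = 1358 pairs, which share libraries and are not independent). The limits of the low-count filter and of the strand apply to the intronic genes of these pairs as well.

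**Figure D2:**
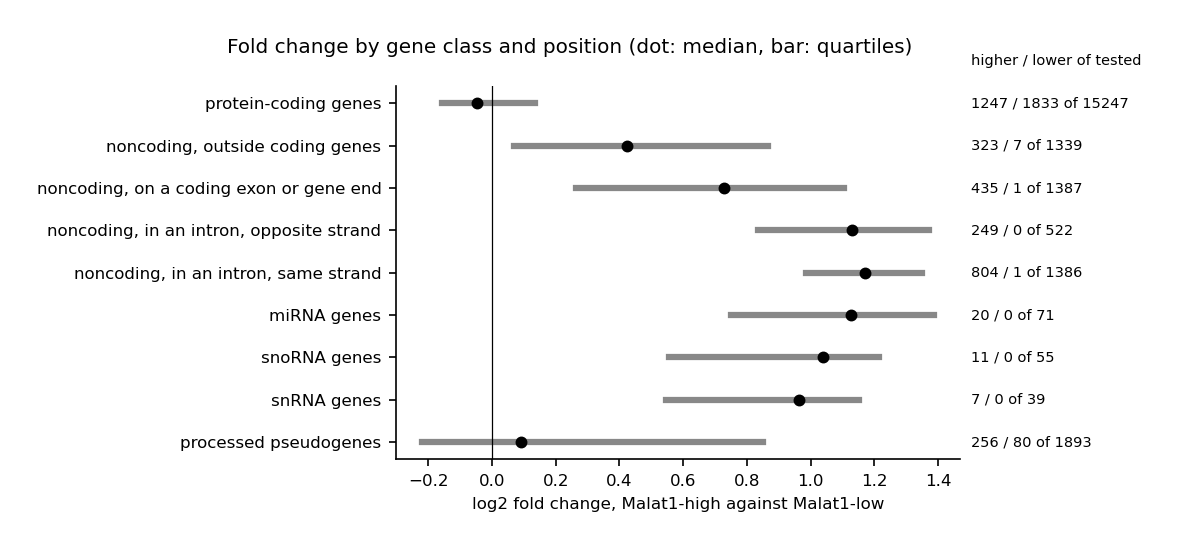
Log2 fold change of Malat1-high against Malat1-low libraries (horizontal axis) by gene class or position, with a dot at the median, a bar from the first to the third quartile and, at the right, the number called higher and lower of those tested. Protein-coding genes centre near 0, and long noncoding genes move right from outside coding genes (0.42) to introns on the same strand (1.17).

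The summed level of the same-strand intronic genes was 3799 to 4844 CPM in the high libraries and 1140 to 3331 CPM in the low ones, with no overlap. On the opposite strand it was 840 to 1083 against 208 to 719 CPM. Genes of the olfactory and vomeronasal receptor families, 1463 coding genes that cortex is not known for, moved with them: their summed level was 102 to 132 CPM in the high and 40.2 to 80.4 CPM in the low libraries. This set was chosen after its values were seen, and counts on such genes can come from RNA of other genes or from DNA; its part in the result was not tested.

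Among the lists of coding genes, the splicing list had the most higher calls. Of 38 splicing regulators known or named for detained introns, which keep part of their transcripts in the nucleus, 25 were higher and 0 lower, with a median of 0.36. Luc7l2, a U1 snRNP-associated factor, was at 178 to 199 CPM in the high libraries, 78.2 to 154 in the low iTBS and sham libraries and 107 to 147 in cTBS (0.62 ± 0.14, edgeR adjusted p = 0.0162). The SR protein gene Srsf5 was at 125 to 177 CPM against 89.9 to 115 and 94.0 to 128 CPM (0.51 ± 0.11). Luc7l2 kept the sets apart, and the high libraries overlapped cTBS for Srsf5.

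Transcripts that host small nucleolar RNAs in introns but leave the nucleus when spliced rose in part: 4 of 13 were higher and 0 lower (median 0.29). Snhg17 was at 6.07 to 9.89 CPM in the high libraries against 3.57 to 6.00 and 3.06 to 5.92 CPM (0.73 ± 0.19), Snhg15 at 0.71 ± 0.22 and Zfas1 at 0.29 ± 0.10. Zfas1 lost its call in 24 of 31 alternative fits. Other nuclear proteins did not follow. Of 35 chromatin regulators, 1 was higher, the bromodomain gene Baz2b (0.24 ± 0.07), and 2 were lower, among them the chromatin remodelling gene Arid1b (-0.17 ± 0.06). Their median of -0.07 turned positive with library totals alone and with the replicate block.

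Messenger RNAs of the synapse were lower. Of 28 genes for synaptic vesicles and transmitter release, 19 were lower and 0 higher, with a median of -0.22. Syn2, a synapsin that tethers vesicles, was at 297 to 374 CPM (median 332) in the high libraries. It was at 391 CPM in iTBS 1, 416 in iTBS 5, 431 in sham 4 and 422 in sham 5, and between 368 and 436 CPM in cTBS (-0.32 ± 0.06, edgeR adjusted p = 0.0162). The high libraries lay below all 4 low libraries of their own stimulation groups, and sham 1 reached into the cTBS range. The vesicle protein gene Syp was at 458 to 529 against 561 to 659 CPM (-0.30 ± 0.07), and Rab3a, the vesicle GTPase, at 372 to 431 against 468 to 581 CPM (-0.36 ± 0.08).

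Secreted proteins of neurons were lower by a similar amount, with 8 of 20 genes for peptides and granins lower, 0 higher and a median of -0.26. Sst, the somatostatin gene of an inhibitory neuron class, was at 65.3 to 82.4 CPM in the high libraries, 90.9 to 102 in the low iTBS and sham libraries and 85.1 to 116 in cTBS, with no overlap (-0.38 ± 0.08, edgeR adjusted p = 0.0162). The neuronal pentraxin genes Nptx2 and Nptx1 were at -0.41 ± 0.09 and -0.39 ± 0.09, and Npy, for neuropeptide Y, at -0.42 ± 0.11. Of 22 messenger RNAs found in dendrites, 2 were lower and 0 higher (median -0.18), a share near the 8.41% of all tested genes: the actin regulator gene Cyfip2 (-0.24 ± 0.07) and the scaffold gene Homer1 (-0.25 ± 0.09). Homer1 was at 419 to 514 CPM in the high libraries and 526 to 577 in the low iTBS and sham libraries, but at 355 to 494 CPM in cTBS.

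Among genes of energy metabolism, those of glycolysis were often lower. Of 16 glycolytic enzymes, 11 were lower and 0 higher, with a median of -0.22. Eno1, for enolase, was at 519 to 600 CPM in the high libraries, 661 to 727 in the low iTBS and sham libraries and 650 to 740 in cTBS (-0.28 ± 0.06, edgeR adjusted p = 0.0162). The high and low values did not overlap. Pgam1, for phosphoglycerate mutase, was at 294 to 314 against 354 to 406 and 338 to 402 CPM (-0.30 ± 0.06), and Ldha, for lactate dehydrogenase, at -0.28 ± 0.06. Nuclear-encoded oxidative phosphorylation had 10 of 72 genes lower and 1 higher (median -0.15), with Atp5g1 and Ndufs7 at -0.26 ± 0.06 and -0.27 ± 0.07 and Atp5l at 0.24 ± 0.06.

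Of 34 translation factors, 14 were lower and 0 higher, with a median of -0.16. Eef1a2, the elongation factor of neurons and muscle, was at 737 to 769 CPM in the high libraries, 862 to 983 in the low iTBS and sham libraries and 817 to 1028 in cTBS (-0.26 ± 0.06, edgeR adjusted p = 0.0180). Eif5a, which releases stalled ribosomes, was at -0.28 ± 0.07. Of 80 cytosolic ribosomal protein genes, 5 were lower and 0 higher (median -0.10), which is a smaller share of calls than among all tested genes. Of their fold changes 73 were negative, against 10423 of 22997 among all tested genes. Rps26 was at -0.32 ± 0.07 and Rps2 at -0.31 ± 0.10. Proteasome subunits had 7 of 31 lower and 0 higher (median -0.14), with Psmb7 at -0.29 ± 0.07. Chaperones had 4 of 26 lower and 0 higher (median -0.15), with Hsp90ab1 at -0.21 ± 0.07 and Hspa8 at -0.23 ± 0.08.

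Replication-dependent histones, whose messenger RNAs end without a poly(A) tail, had 7 of 47 tested genes lower, 0 higher and a median of -0.40. Hist1h4d was at 46.4 to 58.3 CPM in the high libraries, 63.0 to 83.5 in the low iTBS and sham libraries and 62.7 to 86.7 in cTBS (-0.42 ± 0.09, edgeR adjusted p = 0.0162). Histone copies are close in sequence, and no source used here says how reads that match several of them were counted. The gene with the largest fall under the naming rule was Hpcal1, a neuronal calcium sensor, at 19.2 to 22.7 CPM against 23.6 to 33.4 and 25.8 to 38.1 CPM (-0.49 ± 0.10). Others among those 10 were Sh3bgrl3 (-0.40 ± 0.09), the matricellular gene Ccn3 (-0.39 ± 0.09), the dynein light chain gene Dynlrb1 (-0.39 ± 0.09) and the adrenoceptor gene Adra2c (-0.38 ± 0.11). Eif4a-ps4, Eno1b and Rab7-ps1, at -0.45 ± 0.09, -0.40 ± 0.07 and -0.39 ± 0.12, are close copies of expressed genes and their counts are uncertain. Among these 20 genes the largest fall, of Hpcal1, was smaller than the smallest rise, that of Snrnp48 (0.92 ± 0.24).

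**Figure D3:**
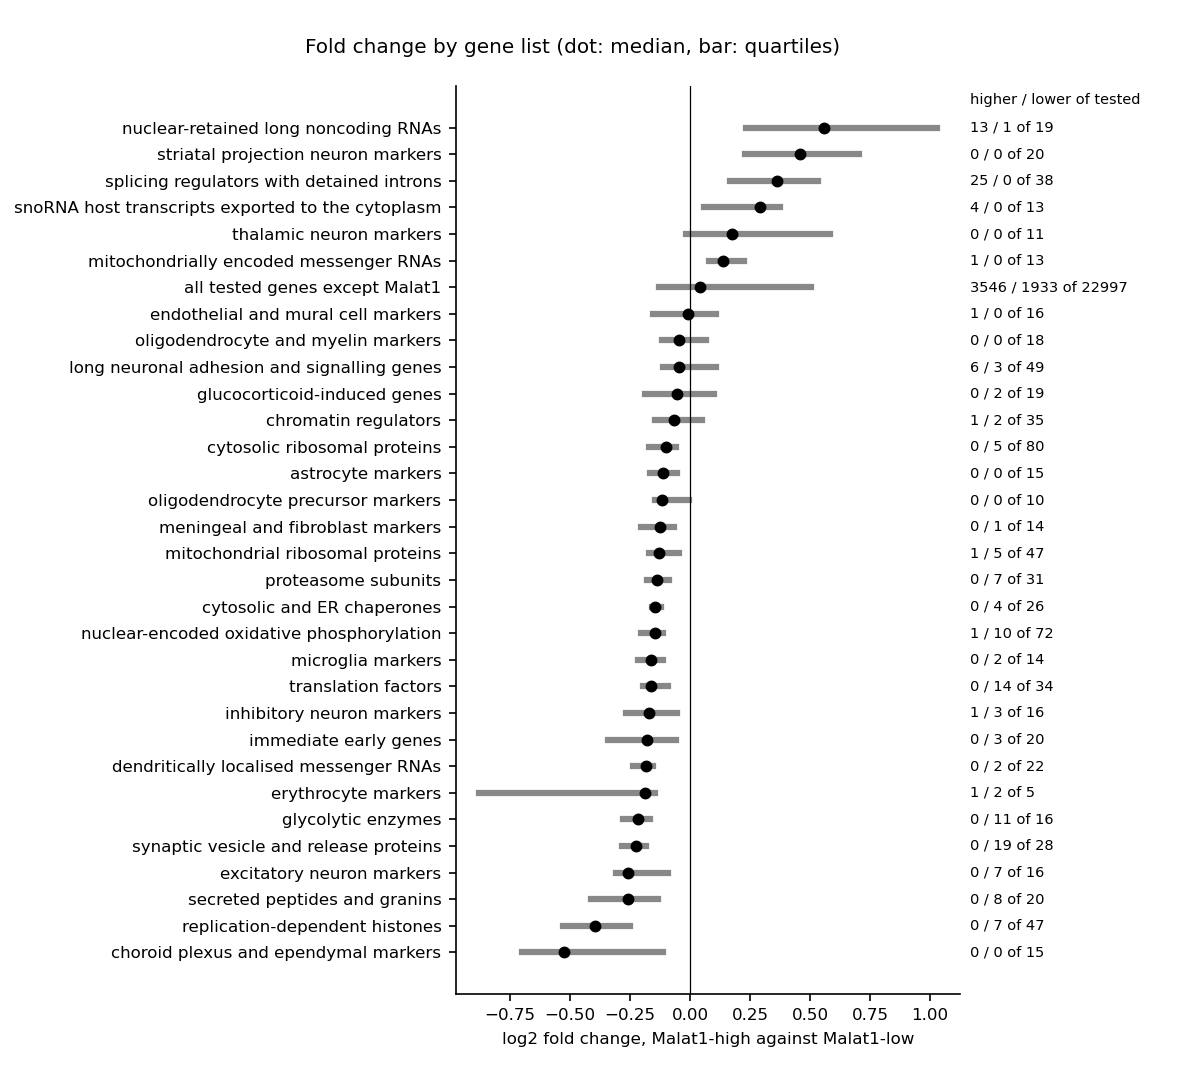
Log2 fold change of Malat1-high against Malat1-low libraries (horizontal axis) by gene list, with a dot at the median, a bar from the first to the third quartile and, at the right, the number called higher and lower of those tested. Nuclear-retained long noncoding RNAs (median 0.56) and splicing regulators (0.36) lie right of all tested genes (0.04), and synaptic, glycolytic and secreted-peptide genes lie left of them; striatal and choroid plexus markers have wide medians and 0 calls.

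Structure within coding genes went with small differences. Coding genes with at least 20 exons had 329 of 2380 higher (13.8%) and 147 lower (6.18%), with a median of 0.03. Single-exon genes had 25 of 446 higher (5.61%) and 80 lower (17.9%), with a median of -0.16. The 13.8% lies above the 8.18% higher among all coding genes but below the 15.4% among all tested genes. Median levels differed as well, at 43.6 CPM with at least 20 exons and 5.46 CPM with a single exon. The part of level in these calls, and in those by span and GC content, was not tested. Genes that span under 5000 bases had 91 of 1711 higher and 240 lower (median -0.12). Genes with under 40% GC had 172 of 936 higher and 26 lower (median 0.05), and those with at least 60% GC had 34 of 711 higher and 135 lower (median -0.15). Across coding genes, Spearman's rho with the fold change was 0.21 for exon number (n = 15234), -0.20 for GC content (n = 15232) and 0.07 for span (n = 15234); genes share libraries, and the values are a description. A list of 49 long neuronal adhesion and signalling genes had 6 higher and 3 lower (median -0.05, positive with library totals alone, the replicate block and the total counts covariate). Among them Grm7, a metabotropic glutamate receptor gene, was at 74.7 to 84.7 CPM against 63.8 to 76.1 and 60.6 to 71.8 CPM (0.24 ± 0.06), and the ion channel gene Asic2 was at -0.26 ± 0.06.

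Several markers of cortical neurons were lower in the high libraries. The label of cortex was checked first: Slc17a7, the vesicular glutamate transporter of cortical excitatory neurons, was at 859 to 1443 CPM in the 15 libraries. It was at 859 to 1134 CPM in the high libraries and 1219 to 1443 CPM in the low iTBS and sham libraries (-0.30 ± 0.09, edgeR adjusted p = 0.0277), with cTBS between 1097 and 1402 CPM. Excitatory neuron markers had 7 of 16 lower and 0 higher (median -0.26), with the projection neuron genes Neurod6 and Fezf2 at -0.39 ± 0.09 and -0.50 ± 0.16. Inhibitory neuron markers had 3 of 16 lower and 1 higher (median -0.17), and the higher gene was Adarb2 (0.32 ± 0.09). Immediate early genes of neuronal activity had 3 of 20 lower and 0 higher (median -0.18): Egr3 at -0.48 ± 0.13, Ier5 at -0.41 ± 0.14 and Jun at -0.26 ± 0.08. Their median was 0.01 at a threshold of 6000 CPM. By mean log2 CPM it was 0.01 within iTBS and -0.39 within sham. Of 19 glucocorticoid-induced genes 2 were lower, again near the share of all tested genes: Cdkn1a, a cell cycle inhibitor, and Klf9, a transcription factor (-0.39 ± 0.11 and -0.22 ± 0.07).

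Of glial lists, 0 of 15 astrocyte, 0 of 18 oligodendrocyte and 0 of 10 oligodendrocyte precursor markers were called, with medians of -0.11, -0.04 and -0.12. The oligodendrocyte median turned positive with library totals alone, with the replicate block and without iTBS 4. Microglia markers had 2 of 14 lower, Tmem119 (-0.28 ± 0.08) and C1qc (-0.23 ± 0.07), and 0 higher. That is 14.3% lower, against 8.41% of all tested genes. Of 16 endothelial and mural markers 1 was higher, the transporter gene Slco1a4 (0.32 ± 0.11), and of 14 meningeal markers 1 was lower, the prostaglandin synthase gene Ptgds (-0.27 ± 0.09). Slco1a4 lost its call in 21 of 31 alternative fits. Markers of neighbouring tissue were uneven among libraries of both sets. The mean log2 CPM of 20 striatal projection neuron markers was 4.65 to 6.62 in the high and 5.02 to 5.91 in the low iTBS and sham libraries, with 0 called and a median of 0.46. By mean log2 CPM that median was -0.01 within iTBS and 0.66 within sham. The mean log2 CPM of 15 choroid plexus and ependymal markers was 0.05 to 2.54 and 0.03 to 2.48, with 0 called and a median of -0.53, and that of 11 thalamic markers 4.20 to 5.75 and 4.28 to 4.36, with 0 called. The sign of the striatal median turned with the striatal level as a covariate and with no stimulation group term, and that of the thalamic median turned at 6000 CPM, with the replicate block, without the 3 libraries with choroid plexus RNA and without sham 2. With the striatal level as a covariate 3036 genes were higher and 1864 lower, and without the 3 libraries with choroid plexus RNA (sham 2, sham 5 and cTBS 4) 5449 were higher and 3621 lower.

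Differences along Malat1 were also measured within cTBS. With no high library, cTBS adds nothing to the estimate of the set difference itself, but it shares the scaling, the filter and the estimate of spread, and the counts of calls moved without some cTBS libraries. In cTBS edgeR was fitted to those 5 alone with log2 Malat1 CPM as a slope, and a slope is the log2 change per doubling of Malat1. It called 57 of 22997 genes (0.248%). Of the 3546 genes higher between the sets, 96.2% had a positive slope in cTBS and 54 were among the called, and of the 1933 lower genes 96.8% had a negative slope and 0 were called. Of the 17518 genes not called between the sets, 47.2% had a positive slope. Rtl1, Meg3 and Miat had slopes of 1.25, 1.03 and 0.97, so they changed about as much as Malat1 itself, whereas Neat1 and Snhg14 had slopes of 0.48 and 0.38. Snhg11, Mirg and Kcnq1ot1 lay between, at 0.85, 0.89 and 0.73. For lower genes slopes were small: Sst was at -0.17, Syn2 at -0.08 and Eno1 at -0.05.

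Across genes the fold change between the sets and the cTBS slope had a Pearson r of 0.753 (n = 22997), and of 0.852 in the 16882 genes with a mean of at least 1 CPM. Both use Malat1 to order libraries and share the scaling and filter, and genes are not independent replicates. Long noncoding genes in introns had a median slope of 0.75 on the same strand and 0.69 on the opposite strand, against -0.03 for coding genes.

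**Figure D4:**
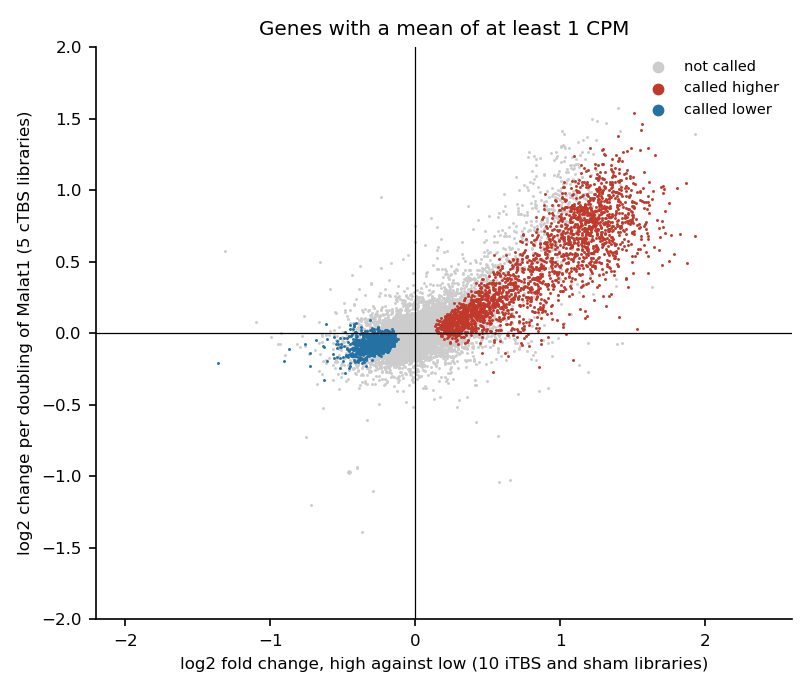
Each point is 1 of 16882 genes with a mean of at least 1 CPM; the horizontal axis is the log2 fold change of Malat1-high against Malat1-low libraries and the vertical axis the log2 change per doubling of Malat1 within the 5 cTBS libraries, with red for genes called higher, blue for genes called lower and grey for the rest (1 gene lies outside the axes). Higher genes spread up and right and lower genes sit in a small cloud just below and left of 0.

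For single genes, the set difference was not detectably unlike in iTBS and in sham. The interaction of set and stimulation group, fitted over the 10 iTBS and sham libraries, was called for 0 genes by edgeR (smallest adjusted p = 1.00), and 333 genes had an unadjusted p under 0.05. Within iTBS the difference of mean log2 CPM was 1.21 for Meg3, 0.90 for Neat1, 0.86 for Snhg14 and -0.34 for Syn2; within sham it was 1.29, 1.13, 0.90 and -0.30. Eno1 and Sst were at -0.25 and -0.27 within iTBS and at -0.30 and -0.48 within sham. Medians of this difference were less alike for some lists. Immediate early genes had 0.01 within iTBS and -0.39 within sham, and striatal markers -0.01 and 0.66. Mitochondrially encoded messenger RNAs had -0.04 and 0.29. Differences between the groups in list medians were not tested. With 3 against 2 libraries in each group, a difference of moderate size could be missed.

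Total counts are the denominator of the Malat1 CPM that chose the libraries, so they are given as a description and no p-value is printed for them. They were 15385070 to 32165734 in the high and 30697296 to 47807723 in the low libraries, a difference of -0.67 in mean log2 total (24.5 ± 0.43, SD, n = 6, against 25.2 ± 0.21, n = 9). When each library was scaled down by sampling to 15385070 counts, the smallest total, the expected number of genes detected was 32565 ± 396 in the high and 29865 ± 1098 in the low libraries (SD, n = 6 and 9). Each high library exceeded each low one (two-sided exact permutation p = 4.00e-04 over 5005 assignments, adjusted p = 0.0012 over 3 measures). The adjustment, here and within the groups below, covers total counts, genes detected and library number. Library numbers in the sample descriptions averaged 6.5 ± 2.7 (SD, n = 6) and 9.0 ± 5.2 (n = 9; exact permutation p = 0.328, adjusted p = 0.328). Within iTBS they averaged 7.33 in the high and 6 in the low libraries, and within sham 5.67 and 14.5. In sham each high library had a lower number than each low one, so set and library order cannot be told apart there.

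Within the iTBS and sham groups, where 100 assignments are possible, the exact permutation p was 0.01, the smallest it can give, for genes detected (2425 more in the high libraries, adjusted p = 0.03). Total counts of the sham sets were 18484169 to 27319588 high and 30697296 to 47807723 low, with no overlap, while those of the iTBS sets, 15385070 to 32165734 high and 32007997 to 37929975 low, overlapped by a narrow margin. With total counts as a covariate edgeR called 0 genes, as given above. All 3546 higher and all 1933 lower genes kept their sign in that fit, as they did without sham 4. They were chosen by their sign in these same libraries, so this is no independent evidence. With the total counts covariate the log2 fold change was 0.99 for Meg3, 0.64 for Snhg14, 0.69 for Neat1 and -0.23 for Syn2. Without the covariate it was 1.21, 0.86, 0.98 and -0.32.

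**Figure D5:**
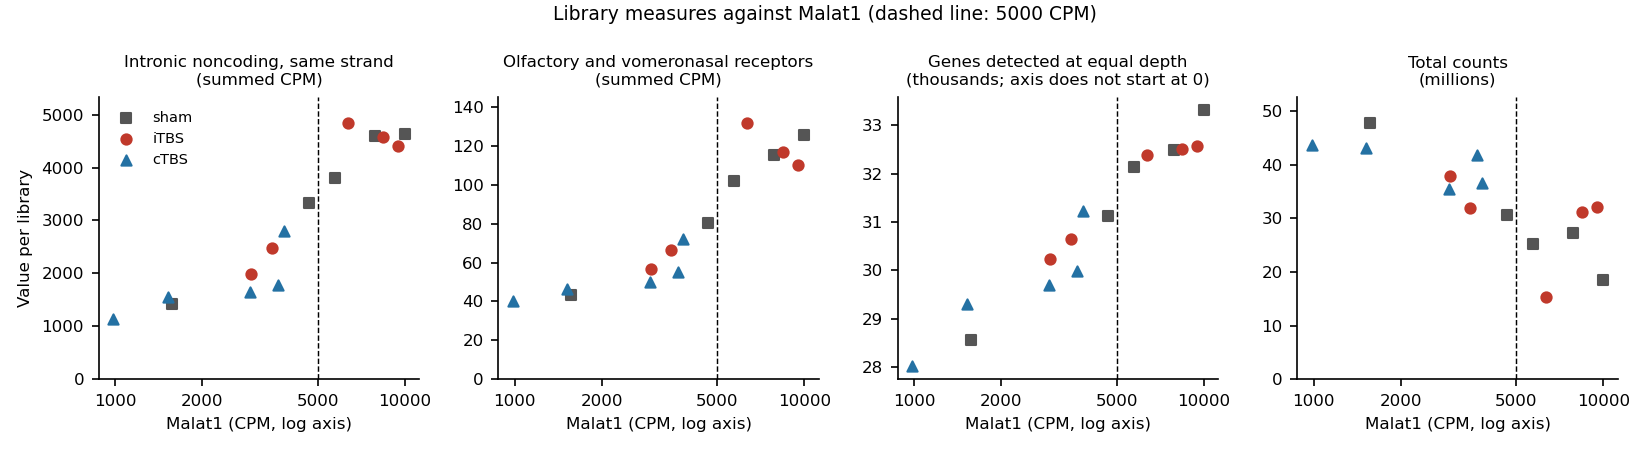
Measures of each library (vertical axes) against Malat1 (horizontal axes, CPM, log axis): summed CPM of same-strand intronic genes and of olfactory and vomeronasal receptor genes, genes detected at equal depth (axis in units of 1000) and total counts (axis in units of 1000000); squares are sham, circles iTBS and triangles cTBS, with a dashed line at 5000 CPM. The first 3 measures are higher in all 6 libraries right of the line than in the 9 left of it, and total counts are mostly lower there.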

How the data were processed

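The authors deposited raw counts per Ensembl gene for 15 libraries, not normalized, and per the submitters' processing notes used fastp, STAR and DESeq2 with GRCm39 (mm39); no source used here gives roles, counter, annotation or strand setting. Per the labels' protocols the kit was a stranded total RNA kit with ribosomal RNA depletion. Deposited variance-stabilized values were not used here. Totals were 15385070 to 47807723 counts.

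Genes were named and classed by identifier from GENCODE M21, an annotation of an earlier build (52125 of 56748 identifiers, 97.8% of counts), so no coordinates are given. The main fit was edgeR 4.0.16 (R 4.3.3): TMM scaling, default filter by stimulation group, all 15 libraries, stimulation group and set as terms, Benjamini-Hochberg adjustment over all tested genes, threshold 0.05. SE is the absolute log2 fold change divided by the square root of F. CPM of Malat1 and summed CPM use library totals; other CPM use TMM-scaled totals of tested genes. List levels are mean log2 CPM with a prior count of 2. The script was tested on simulated data.

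Named genes were up to 10 higher and 10 lower called genes of at least 10 CPM without overlap and with an established symbol, the nuclear-retained list, and the 3 members with the smallest p in other lists; microRNA genes were added, and a few genes under this rule are not reported here. The members and lists were chosen with earlier results of these data known. Labels state 5 animals per group; each library was taken as 1 animal. Alternatives covered scaling, filter, tool, thresholds of 4000 and 6000 CPM, covariates, a replicate block and each library left out.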

Additional observations from a re-analysis of the deposited data

Results flagged for a closer look

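Within the 6 Malat1-high, the 4 Malat1-low iTBS and sham and the 5 cTBS libraries, 69 sets of values were searched for a highest or lowest library far from the others, for Malat1, the 20 genes with the largest rise or fall, total counts and genes detected. Chance flags about 1 in 20 groups, and 7 were found. Among the low iTBS and sham libraries, Neat1 was lowest in sham 4, at 10.8 CPM against 21.1 CPM in the nearest library. In cTBS, cTBS 4 was highest for 3 lower genes: Sh3bgrl3 at 44.4 CPM (nearest 34.2), Dynlrb1 at 110.3 CPM (nearest 85.1) and Sst at 115.6 CPM (nearest 93.8). Adra2c was highest in cTBS 1, at 22.7 CPM (nearest 17.1). Among the high libraries, Eno1b was highest in iTBS 3, at 98.5 CPM (nearest 88.8), and sham 3 had the most genes detected at equal depth, 33310 (nearest 32563).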

How the results depend on the processing

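With 3546 higher and 1933 lower calls as the reference, the counts moved under most alternatives. Lower calls were 3369 with DESeq2, 3037 with relative log scaling, 563 with library totals alone, 3321 without a low-count filter and 3140 with the Malat1 row removed, where higher calls stayed within 1.5 times. At 6000 CPM there were 938 higher and 196 lower, with log2 Malat1 as a gradient 6462 and 3655, with no stimulation group term 6629 and 3895, without 3 libraries with choroid plexus RNA 5449 and 3621, and with log2 total counts as a covariate 0 and 0. In the 10 iTBS and sham libraries alone, added after seeing the data, 3232 were lower. Leaving out 1 library gave 0 to 5043 higher and 0 to 3315 lower. The cause of these moves was not tested. The replicate block gave 5516 higher and 3090 lower; same-numbered libraries deviated together by r over 0.1 in 7 of 15 pairs (-0.564 to 0.717), so the numbers are no pairing. Of 99 genes followed, all called but Tug1, 98 lost the call without sham 4 and with the total counts covariate no call was left; 85 lost it at 6000 CPM, 40 without iTBS 1, 27 with library totals alone, 10 with the block and 2 with DESeq2. Tug1 turned to 0.036 with library totals alone and 0.039 with the total counts covariate on the log2 scale. The log2 total difference ran from -0.76 to -0.54 with 1 library left out (-0.60 within the iTBS and sham groups), genes detected from 2469 to 2870 and library number from -3.5 to -1.75.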

Other observations

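Transcripts of blood and mitochondria were measured in the same comparison. Of 13 mitochondrially encoded messenger RNAs, 1 was higher and 0 lower (median 0.14). By mean log2 CPM the median was -0.04 within iTBS and 0.29 within sham. The higher gene was mt-Nd6, the complex I subunit encoded on the opposite strand from the other mitochondrial messenger RNAs, at 55.4 to 77.5 CPM in the high libraries, 34.3 to 49.2 in the low iTBS and sham libraries and 27.6 to 56.9 in cTBS (log2 fold change 0.65 ± 0.17, edgeR adjusted p = 0.0212), and cTBS overlapped the high libraries. Of 5 tested erythrocyte genes, Alas2, the first enzyme of haem synthesis in red cells, was higher (0.75 ± 0.21), and Slc4a1, the anion exchanger of red cells, was lower (-1.66 ± 0.42), at 0.270 to 0.721 CPM in the high and 0.542 to 3.51 CPM in the low iTBS and sham libraries.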
